A study of Mus musculus with 6 samples.

Results

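The 52 genes described here encode the glutamate receptors of the synapse and the proteins that hold them in the postsynaptic density. They were chosen by name and matched by symbol to Ensembl identifiers. All 52 were found among the 48795 identifiers of the count table, and all had enough counts to be tested. There were 4 AMPA, 6 NMDA, 5 kainate and 6 metabotropic receptor genes, 18 scaffold genes, 3 genes of calcium-calmodulin signalling, 6 adhesion genes and 4 genes of auxiliary or sorting proteins. The hippocampus of inducible forebrain double-knockout mice (dKO, 3 libraries) and of wild-type mice (WT, 3 libraries) was profiled by sequencing of polyadenylated RNA. Mice of both groups were given tamoxifen, at an age the labels put at 2 to 3 months, on the C57BL/6J background. The dKO mice had floxed alleles of Kdm1a and Kdm5c, which encode demethylases of lysine 4 of histone H3, and CamKIIα-CreERT2, a tamoxifen-dependent recombinase driven by the CamKIIα promoter in forebrain principal neurons. Interneurons, glia and vessels are not targeted by this promoter and contribute RNA to the same libraries. There was no single-knockout group, and the sources used here do not say whether WT mice had the recombinase, so effects of each enzyme and of the recombinase cannot be told apart.

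Glutamate released by a presynaptic neuron opens AMPA receptors, which carry most of the fast excitatory current, and NMDA receptors, which admit calcium when the membrane is already depolarised. Kainate receptors modulate release and excitability, and metabotropic receptors act through G proteins on both sides of the synapse. Behind the membrane, scaffolds of the DLG, DLGAP, SHANK and HOMER families tie the receptors to each other, to calcium-calmodulin-dependent kinase II and to the actin of the dendritic spine.

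Library totals lay between 19309576 and 19700249 gene counts. Kdm1a was at 73.7 ± 3.95 CPM in WT and 38.6 ± 1.29 CPM in dKO (counts per 1000000, mean ± SD, n = 3 each), a log2 fold change of dKO over WT of -0.93 (SE 0.0651, adjusted p = 4.32e-07 with edgeR). Kdm5c was at 79.5 ± 2.97 CPM in WT and 70.6 ± 4.67 CPM in dKO and missed the threshold of 0.05 (-0.17, SE 0.0640, adjusted p = 0.143), although its groups did not overlap. These counts cover all exons and all cells, so they do not measure how much of either gene was recombined. WT libraries differed more among themselves (chi-square per gene 6.33 to 9.84 between pairs) than dKO libraries did (3.42 to 4.20). WT replicate 2 was the highest of its group for 28 of the 52 genes (against 36.3% of all genes tested) and WT replicate 3 the lowest for 29. In dKO, replicate 2 was the highest for 26 (against 34.0% of all genes tested) and replicate 1 the lowest for 23. Slc17a7, the vesicular glutamate transporter gene that defines these principal neurons, was at 1233 to 1446 CPM in WT and 1261 to 1371 CPM in dKO.

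Of the 52 transcripts of the glutamatergic postsynapse, 1 passed the test between dKO and WT hippocampus. Grin2d, an NMDA receptor subunit gene, was the gene that rose, and 0 fell, at an adjusted p under 0.05. The called share was 1.92%, against 6.95% of all 16861 genes tested and 6.99% of the 11971 with a mean of at least 5 CPM. Over all genes 5.9% rose and 1.05% fell, so a count of 0 falls among 52 is near the background. The median log2 fold change was -0.03 over the 52 genes and -0.01 over all genes tested. Estimates lay below 0 for 35 of the 52 (67.3%, against 51.8% of all genes tested). Estimates of at least 1.2-fold were found for 2 genes, Grin2d and Homer3 (3.85%, against 22.6% of all genes tested and 12.0% of those with at least 5 CPM).

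These estimates were narrow. The SE of a log2 fold change was 0.0493 to 0.192 with a median of 0.0680, against a median of 0.0983 over all genes tested. The 95% interval excluded a 1.5-fold change in either direction for 51 of the 52 genes and a 1.2-fold change for 33. At an unadjusted p under 0.05, 4 genes were higher in dKO (7.69%, against 12.6% of all genes tested) and 5 were lower (9.62%, against 7.66%). In both directions together they were 17.3% of the 52, against 20.2%. The groups did not overlap for 10 genes, or 19.2%, against 25.2% of all genes tested and 26.2% of those with at least 5 CPM. Of the 10, 3 were higher (background 14.0% and 13.0%) and 7 were lower (background 11.2% and 13.2%). DESeq2 called 2 rises and 0 falls, and limma-voom 1 rise and 0 falls. Alternatives at the 0.05 threshold called up to 4 rises and up to 3 falls.

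**Figure D1:**
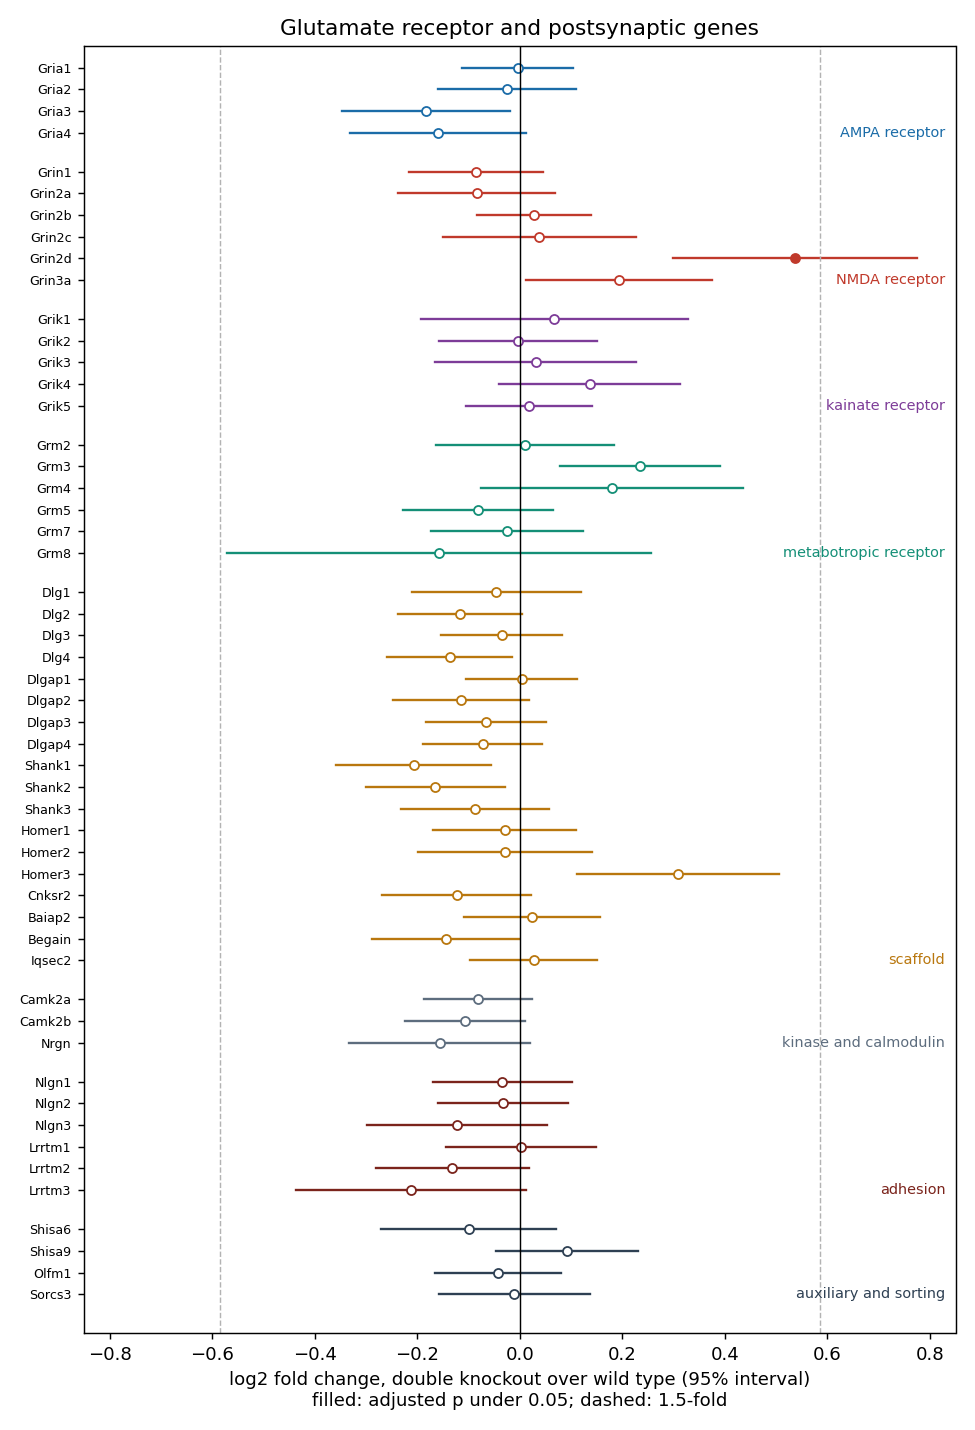
Log2 fold change of double knockout over wild type (x axis) for each of the 52 genes, grouped by class, with 95% intervals as lines. The filled point marks Grin2d, the only gene past an adjusted p of 0.05, and the intervals of the other 51 genes lie inside the dashed lines at 1.5-fold.

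NMDA receptors are built from the obligatory subunit GluN1, encoded by Grin1, and from GluN2 or GluN3 subunits that set their kinetics and calcium entry. Grin2d encodes GluN2D, a slowly deactivating subunit that is abundant early in development and in adult interneurons. It was at 12.4, 17.1 and 15.9 CPM in the WT libraries and 22.3, 22.6 and 20.9 CPM in the dKO libraries. Every dKO value exceeded every WT value, and the WT values were the more scattered. The rise was 1.45-fold (95% interval 1.23 to 1.71, log2 fold change 0.54, SE 0.11, adjusted p = 0.00762). It passed the threshold in all 15 alternative fits, with 0.41 without WT replicate 1 as the lowest and 0.63 without WT replicate 2 as the highest log2 fold change. Its longest transcript has the highest GC content of the 52 genes (65.0%), and with GC correction the log2 fold change was 0.42 (adjusted p = 0.0354).

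Reads of Grin2d and of an antisense neighbour may be mixed. Grin2d (ENSMUSG00000002771) lies on the minus strand of chromosome 7, 45831883 to 45878378 (GRCm38). Gm45441 (ENSMUSG00000110020, plus strand, 45830895 to 45835249) shares 643 exonic bases with it, 9.66% of the Grin2d exons, and all 643 are coding in Grin2d. Gm45441, named after its value was seen, was at 3.31, 3.40 and 3.80 CPM in the WT libraries and 13.4, 13.8 and 11.5 CPM in the dKO libraries. It rose 3.67-fold (95% interval 3.03 to 4.45, log2 fold change 1.88, SE 0.130, adjusted p = 4.32e-07), with a wide gap between the groups. Over the 6 libraries Gm45441 had 959 counts and Grin2d 2165. Whether the counting used strand is unknown from the labels and notes, so reads of the shared bases cannot be assigned to 1 of the genes, and the part of Gm45441 in the Grin2d rise was not tested.

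RefSeq promoter windows (GRCm38.p6, 250 bases before to 50 after an annotated start) were found for 36 of the 52 genes. The windows of the 3 NMDA receptor genes with an entry are shown, so that Grin2d can be read beside subunit genes without a call. They run 5′ to 3′ on the gene's own strand, minus for all 3, with the CpG dinucleotides in capitals. Grin2d is at chr7:45866632-45866931, inside the span of the GENCODE gene, Grin1 at chr2:25319138-25319437 and Grin2c at chr11:115267194-115267493.
Grin2d: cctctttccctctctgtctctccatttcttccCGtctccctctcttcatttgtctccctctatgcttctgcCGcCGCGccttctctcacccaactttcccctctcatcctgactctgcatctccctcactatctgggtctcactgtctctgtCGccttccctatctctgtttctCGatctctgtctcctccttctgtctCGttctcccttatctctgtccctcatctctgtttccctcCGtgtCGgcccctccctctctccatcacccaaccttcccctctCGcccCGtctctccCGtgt
Grin1: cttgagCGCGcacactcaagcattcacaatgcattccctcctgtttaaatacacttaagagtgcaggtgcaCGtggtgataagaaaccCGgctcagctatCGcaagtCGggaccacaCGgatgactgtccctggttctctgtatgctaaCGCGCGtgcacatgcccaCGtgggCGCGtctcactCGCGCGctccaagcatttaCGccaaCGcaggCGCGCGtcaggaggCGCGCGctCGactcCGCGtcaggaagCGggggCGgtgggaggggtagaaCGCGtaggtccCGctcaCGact
Grin2c: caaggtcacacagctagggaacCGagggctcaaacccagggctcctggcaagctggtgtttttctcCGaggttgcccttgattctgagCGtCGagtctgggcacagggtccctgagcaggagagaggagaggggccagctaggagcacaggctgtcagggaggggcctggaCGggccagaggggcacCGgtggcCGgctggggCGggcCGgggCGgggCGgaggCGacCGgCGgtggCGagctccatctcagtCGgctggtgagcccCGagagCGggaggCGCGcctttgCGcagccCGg
The Grin2d window held 12 CpG, the Grin1 window 33 and the Grin2c window 22. The median was 24 over the first entry of each of the 36 genes (range 2 to 52) and 7 over all 32851 windows. A GC box, GGGCGG on either strand, occurred 0 times in the Grin2d window, 1 time in Grin1 and 2 times in Grin2c, counted without overlap (3 in Grin2c with overlapping matches). It was present in 66.7% of the 36 windows and 35.7% of all windows. TGACG on either strand, the core of a cyclic AMP response element, occurred 2 times in Grin1 and 0 times in Grin2d and Grin2c, and was present in 19.4% of the 36 windows and 20.8% of all windows. GGGCGG contains a CpG, and so does TGACG. These are letter matches in 300-base windows and no measure of binding.

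The other 5 NMDA receptor genes did not pass. Grin1 was at 344 ± 20.6 CPM in WT and 324 ± 14.2 CPM in dKO (estimate -5.75%, 95% interval -13.9 to 3.22%). Its antisense gene Grin1os shares 13.5% of the Grin1 exonic bases. Grin1os was at 14.0 to 17.1 CPM in WT and 12.3 to 13.2 CPM in dKO, lower in all dKO libraries (log2 fold change -0.33, adjusted p = 0.0761). The main GluN2 subunit genes of adult principal neurons gave -5.69% for Grin2a (interval -15.2 to 4.89%) and 1.97% for Grin2b (interval -5.58 to 10.1%). Grin2c, a subunit gene also used by astrocytes and cerebellar granule cells, gave 2.66% (interval -9.91 to 17.0%). Grin3a, whose subunit lowers calcium entry, was at 49.9, 50.5 and 42.8 CPM in the WT libraries and 60.3, 53.8 and 49.5 CPM in the dKO libraries. Its groups overlapped, and its log2 fold change was 0.19 (SE 0.0846, adjusted p = 0.215).

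AMPA receptor genes had 0 calls, and all 4 estimates lay below 0, with a median log2 fold change of -0.09. Gria1 and Gria2 encode the subunits of most hippocampal AMPA receptors, GluA2 being the one that makes the channel impermeable to calcium after RNA editing. Gria1 was at 1178, 1285 and 1259.6 CPM in the WT libraries and 1202, 1257 and 1251 CPM in the dKO libraries. The dKO values lay within the WT range, and the estimate was -0.306% (95% interval -7.51 to 7.46%), with a sign that flips in 5 of 15 alternatives: library size alone, a filter of at least 1 CPM in 3 libraries, and without WT replicate 2, WT replicate 3 or dKO replicate 1. Gria2 gave -1.75% (interval -10.5 to 7.84%). Gria3, a subunit gene of lower abundance, was at 275, 306 and 240.1 CPM in the WT libraries and 246, 236 and 241.3 CPM in the dKO libraries. WT replicate 3 lay among the dKO values, and the log2 fold change was -0.18 (SE 0.0763, adjusted p = 0.190). Without WT replicate 3 it was -0.27 with an adjusted p of 0.0145. Gria4, a subunit gene of interneurons and glial precursors among others, gave -10.5% (interval -20.5 to 0.805%).

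Kainate receptor genes had 0 calls and a median log2 fold change of 0.03. Grik5, whose high-affinity subunit needs a partner of the GluK1 to GluK3 group, was the most abundant per kilobase (52.2 ± 1.62 CPM per kb in WT) and gave 1.25% (95% interval -7.02 to 10.3%), with a sign that flips after GC correction. Grik4, the other high-affinity subunit gene, strong in CA3 pyramidal cells, was at 69.4, 72.0 and 86.2 CPM in the WT libraries and 77.1, 84.7 and 88.5 CPM in the dKO libraries. WT replicate 3 sat within the dKO range. The log2 fold change was 0.14 (SE 0.0820, adjusted p = 0.387), and without WT replicate 3 it was 0.24 with an adjusted p of 0.0472. Grik1, a subunit gene of interneurons, had the lowest CPM of the family (15.9 ± 2.22 CPM in WT and 16.7 ± 2.13 CPM in dKO) and the widest interval, -12.5 to 25.5%. Grik2 and Grik3, which encode subunits able to form channels alone, gave -0.310% (interval -10.4 to 10.9%) and 2.16% (interval -10.8 to 17.0%).

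Among metabotropic receptor genes 0 passed, and the median log2 fold change was -0.01. Grm3, a receptor gene of astrocytes as well as neurons, was at 42.5, 43.9 and 48.7 CPM in the WT libraries and 54.6, 55.0 and 49.4 CPM in the dKO libraries. All dKO values lay above all WT values, by a small margin. Its estimate of 17.6% (95% interval 5.51 to 31.1%) missed the threshold (adjusted p = 0.0757), and passed it without WT replicate 3 (0.0188) and with library size alone (0.0493). Astrocyte markers were higher beside it: their summed level was 5273 to 5522 CPM in WT and 5856 to 5924 CPM in dKO, with 1 of 7 markers, Gfap, past the threshold and 0 at 0. The part of these cells in the Grm3 value was not tested. Grm5, which couples to phospholipase C and is mainly postsynaptic, was at 231 ± 20.2 CPM in WT and 218 ± 7.22 CPM in dKO (interval -14.6 to 4.57%). Of the receptors that lower cyclic AMP, Grm2 gave 0.716%, Grm7 -1.73% and Grm4 13.3%, each with an interval that spanned 0. Grm8, also of this group, had the lowest level of the 52 genes (8.56 ± 2.21 CPM in WT and 7.67 ± 1.75 CPM in dKO) and the widest interval, -32.7 to 19.4%.

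Scaffold genes also had 0 calls, yet most of their estimates lay below 0. Of 18 genes, 14 had a negative log2 fold change and the median was -0.07, between -0.10 and -0.0497 on leaving out a library. In 7 of the 18 (38.9%) all dKO values were below all WT values, against 11.2% of all genes tested and 13.2% of those with at least 5 CPM. The 7 were Dlg2, Dlg4, Dlgap2, Dlgap4, Shank1, Shank2 and Begain, with estimates from -13.4% for Shank1 to -4.92% for Dlgap4. At an unadjusted p under 0.05, 4 of the 18 were lower (22.2%, against 7.66% of all genes tested) and 1 was higher. The lean below 0 was not particular to scaffolds. Estimates were also negative for 4 of 4 AMPA receptor, 3 of 3 calcium-calmodulin and 5 of 6 adhesion genes. In those classes 0 genes were lower in all dKO libraries, and all 7 such genes among the 52 were scaffolds. Estimates were negative for 59 of 85 genes (69.4%) in the list of other postsynaptic genes below. Of its 42 scaffold, kinase, GTPase regulator and spine genes, 9 (21.4%) were lower in all dKO libraries. In these bulk libraries fewer cells of a type and less RNA per cell cannot be told apart.

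SHANK proteins form the deep layer of the postsynaptic density. Shank1 was at 601, 747 and 658 CPM in the WT libraries and 584, 596 and 557 CPM in the dKO libraries. A narrow gap, between WT replicate 1 and dKO replicate 2, separated the groups, and WT replicate 2 stood well above the rest. The log2 fold change was -0.21 (SE 0.0706, adjusted p = 0.106). It passed with no filter on low counts (0.0337), after GC correction without and with a replicate block (0.0340 and 0.0248) and without WT replicate 1 (0.0310), and the largest adjusted p of any alternative was 0.367. Shank2 was at 279, 321 and 285 CPM in the WT libraries and 270.3, 261 and 259 CPM in the dKO libraries, with WT replicate 2 again the highest (estimate -10.8%, 95% interval -18.8 to -2.02%, adjusted p = 0.151). Shank3 gave -5.90% (interval -14.8 to 3.98%).

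DLG proteins bind receptor tails through PDZ domains, and DLG4, also called PSD-95, is the best known of them at excitatory synapses. Dlg4 was at 717, 773 and 793 CPM in the WT libraries and 654, 714 and 707 CPM in the dKO libraries. dKO replicate 2 came close to WT replicate 1, and the estimate was -9.06% (95% interval -16.5 to -1.01%, adjusted p = 0.190). Dlg2, which encodes PSD-93, gave -7.82% (interval -15.2 to 0.247%), while Dlg1 and Dlg3 gave -3.12% and -2.43% with overlapping groups. Among the DLGAP genes, which link DLG to SHANK, the estimates were 0.218% for Dlgap1, -7.67% for Dlgap2, -4.50% for Dlgap3 and -4.92% for Dlgap4. Begain, whose product binds PSD-95, was at 113, 118 and 113 CPM in the WT libraries and 95.3, 112 and 104 CPM in the dKO libraries, dKO replicate 2 nearly reaching WT. Its log2 fold change was -0.14 (SE 0.0668, adjusted p = 0.244), and after GC correction -0.25 (adjusted p = 0.0239). Cnksr2, a scaffold of Ras signalling, gave -8.22% (interval -17.0 to 1.53%).

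Homer3 was the 1 scaffold gene with a higher level in all dKO libraries. HOMER proteins link group I metabotropic receptors to SHANK and to calcium stores. Homer3 was at 34.2, 34.7 and 41.7 CPM in the WT libraries and 42.4, 50.8 and 43.8 CPM in the dKO libraries. The groups did not overlap, although WT replicate 3 and dKO replicate 1 nearly met. The estimate of 23.9% (95% interval 8.08 to 42.0%) had an adjusted p of 0.0617, and it passed with DESeq2 (0.0429), library size alone (0.0402), no filter (0.0213) and without WT replicate 3 (0.00688). Homer3 shares 25.4% of its exonic bases with the antisense gene Ddx49, which was at 17.0 to 18.8 CPM in WT and 18.5 to 18.8 CPM in dKO. Homer1 and Homer2 gave -2.03% and -1.94%. Baiap2, whose product shapes spine actin and which was the most abundant scaffold gene per kilobase of all exons (73.9 ± 4.55 CPM per kb in WT), though Dlg4 led with the length of the longest transcript (120.3 against 92.2 CPM per kb), gave 1.68%, with a sign that flips after GC correction. Iqsec2, an activator of ARF GTPases, gave 1.88%.

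**Figure D2:**
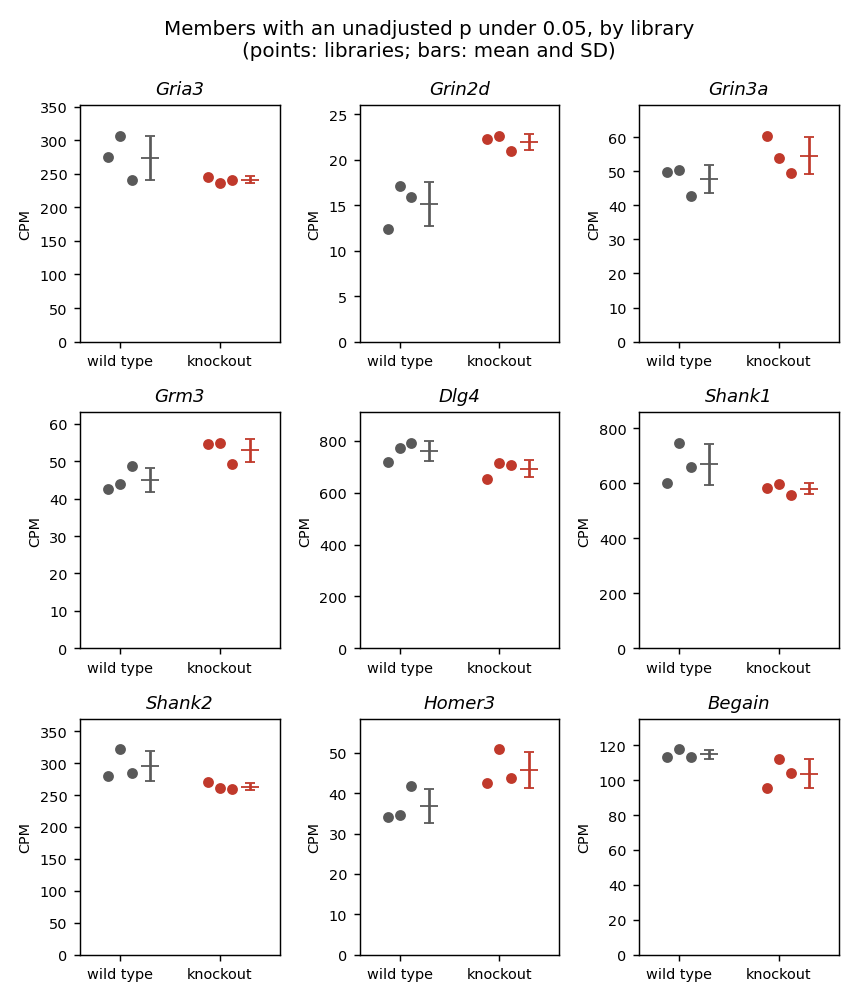
CPM (y axis, from 0) in each wild-type and double-knockout library for the 9 genes with an unadjusted p under 0.05, with the mean and SD of each group. Grin2d is the only 1 of the 9 past the adjusted threshold, and the groups of Gria3 and Grin3a overlap.

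Calcium-calmodulin-dependent kinase II responds to calcium that enters through NMDA receptors. Camk2a, its alpha subunit gene and the highest of the 52 in CPM, was at 4547, 4932 and 4875 CPM in the WT libraries and 4284, 4736 and 4542 CPM in the dKO libraries. The groups overlapped (estimate -5.52%, 95% interval -12.2 to 1.69%). Camk2b, the beta subunit gene, gave -7.21% (interval -14.4 to 0.634%). Nrgn, which encodes the calmodulin-binding protein neurogranin, was at 827, 802 and 951 CPM in the WT libraries and 672, 845 and 799 CPM in the dKO libraries (estimate -10.3%, interval -20.6 to 1.44%), and passed in 1 of 15 alternatives (GC correction with a replicate block, adjusted p = 0.0466). dKO replicate 1 was the lowest library for all 3 genes, and 0 of the 3 passed with TMM and all libraries (adjusted p = 0.387, 0.292 and 0.316).

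Postsynaptic adhesion genes had 0 calls and a median log2 fold change of -0.08. Neuroligins and LRRTM proteins bind presynaptic neurexins. Nlgn2, the neuroligin gene of inhibitory synapses and the most abundant per kilobase (47.8 ± 2.82 CPM per kb in WT), gave -2.30% (95% interval -10.5 to 6.66%). Nlgn1 gave -2.34% and Nlgn3 -8.14%, Nlgn3 sharing 41.2% of its exonic bases with Gm21986. Lrrtm3 was at 23.0, 23.5 and 20.3 CPM in the WT libraries and 21.0, 16.4 and 20.3 CPM in the dKO libraries. dKO replicate 2 was the lowest, the groups overlapped, and the log2 fold change was -0.21 (SE 0.104, adjusted p = 0.276). Lrrtm2 gave -8.74% (interval -17.7 to 1.22%) and Lrrtm1 0.112% (interval -9.55 to 10.8%).

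Of the auxiliary and sorting genes 0 passed, with a median log2 fold change of -0.03. Olfm1, whose secreted product is found in AMPA receptor complexes, was the most abundant (1145 ± 52.9 CPM in WT and 1112 ± 69.1 CPM in dKO). Shisa9, an auxiliary AMPA receptor subunit gene, gave 6.51% (95% interval -3.24 to 17.2%). Shisa6, a related subunit gene, was at 213, 272 and 234 CPM in the WT libraries and 215, 222 and 234 CPM in the dKO libraries. WT replicate 2 stood above the rest, and the log2 fold change was -0.10 with it and 0.000632 without it. Sorcs3, a sorting receptor gene, gave -0.755% (interval -10.4 to 9.95%).

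Receptors and scaffolds were compared by the mean log2 level of each class in each library. The scaffold mean was lower in all 3 dKO libraries than in the 3 WT libraries, with a difference of group means of -0.0552 (dKO minus WT, log2) and an SD between libraries of 0.0416 in WT and 0.0253 in dKO. The gap was small: WT replicate 1 was at 0.00243 and dKO replicate 2 at -0.00134, relative to the mean of the 6 libraries. The same differences were -0.0895 for AMPA, 0.11 for NMDA, 0.0499 for kainate and 0.0302 for metabotropic receptors, and the groups overlapped in each of these 4 families. The NMDA difference includes Grin2d, whose log2 fold change was 0.54, and the median over the 6 NMDA receptor genes was 0.03. Among the 21 receptor genes 0 were lower in all dKO libraries and 2, Grin2d and Grm3, were higher (9.52%, against 14.0% of all genes tested). Among the 18 scaffold genes 7 were lower (38.9%, against 11.2% of all genes tested) and 1, Homer3, was higher (5.56%), so both counts of higher genes are at or below the background. The median log2 fold change of the receptor genes was 0.01, with 10 of 21 negative. These class values are descriptions, and the difference between receptors and scaffolds was not tested.

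**Figure D3:**
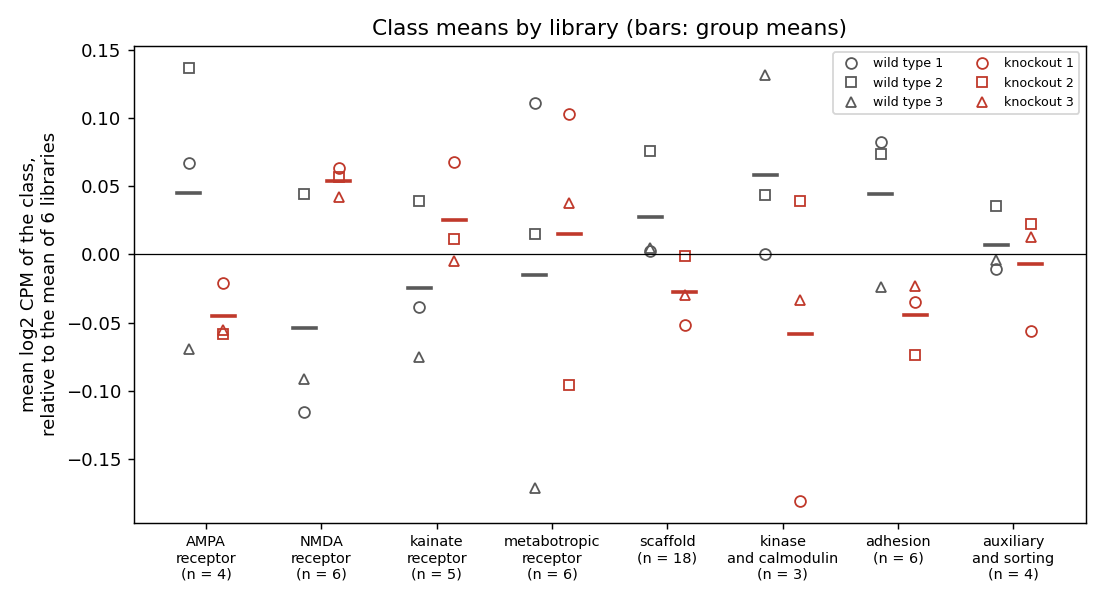
Mean log2 CPM of each class (y axis, relative to its mean over the 6 libraries) in each library, with wild type in grey, double knockout in red and bars at the group means. The scaffold class is the only 1 of the 8 whose knockout libraries all lie below its wild-type libraries, and the metabotropic receptor means spread widely in both groups.

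Per kilobase of exon, each receptor family was led by the same gene in both groups. Gria1 held 68.0 ± 2.27% in WT and 69.2 ± 0.743% in dKO of AMPA receptor transcript (mean ± SD, n = 3 each), followed by Gria2 with 18.7 ± 1.14% in WT and 18.8 ± 0.158% in dKO. Grin2d held 2.25 ± 0.318% in WT and 3.29 ± 0.158% in dKO of NMDA receptor transcript, without overlap, and was the scarcest of the 6 subunit genes in both groups. Grin1 held 35.2 ± 3.01% in WT and 33.4 ± 1.05% in dKO, a share that depends on the gene length used: with the longest transcript it was 52.1% in WT. Grik5 held 63.0 ± 0.30% in WT and 62.1 ± 1.04% in dKO of kainate receptor transcript. Grm5 held 34.3 ± 1.32% in WT and 31.7 ± 0.182% in dKO of metabotropic receptor transcript, and these shares did not overlap. Its CPM did overlap (207 to 242 in WT and 211 to 226 in dKO). A share also depends on the other genes of the family, of which Grm3 held 22.7% in WT and 25.9% in dKO.

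**Figure D4:**
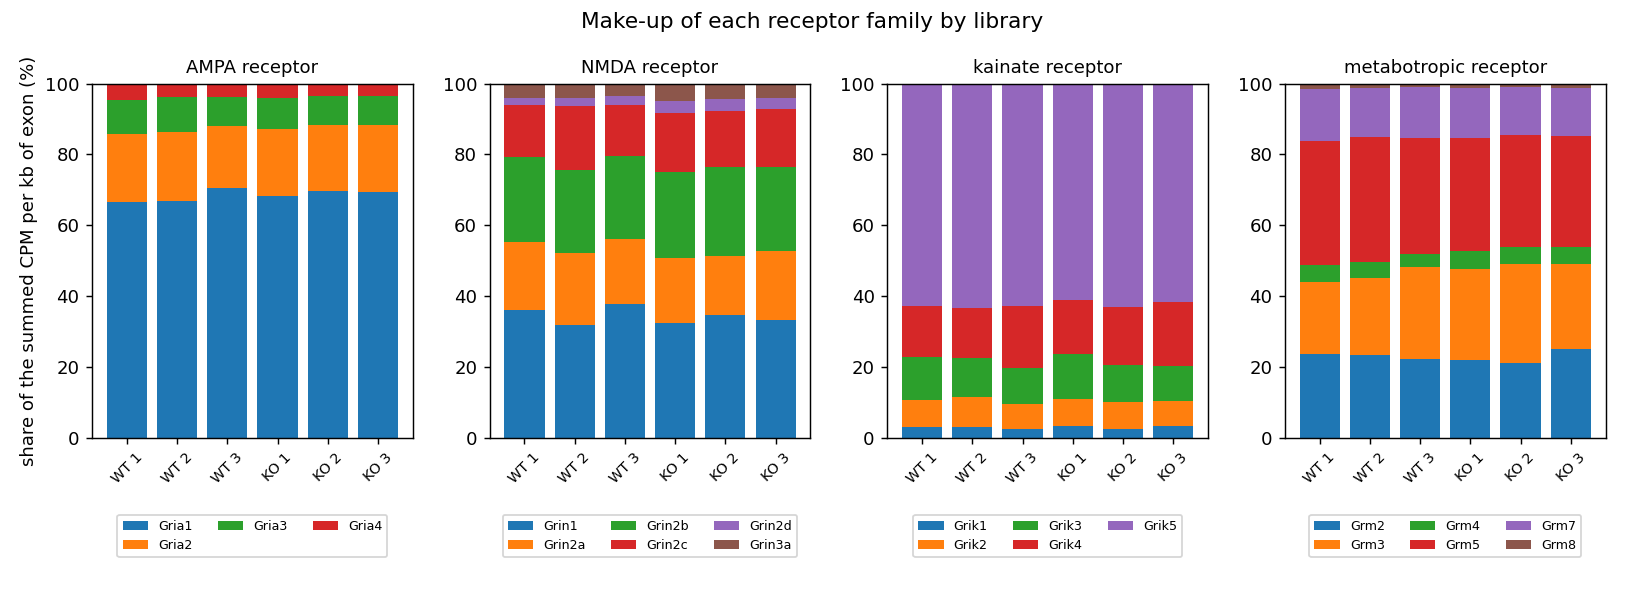
Share of each subunit gene in the summed CPM per kilobase of its receptor family (y axis, percent) in the 6 libraries. Gria1 and Grik5 hold the largest shares of the AMPA and kainate families in each library, and Grin2d forms a thin band that is wider in the knockout (3.29%) than in wild type (2.25%).

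Subunit ratios per kilobase were tested over the 6 libraries with a two-sided exact permutation test, which with 3 against 3 cannot give a p below 0.1. Of 9 ratios, 2 did not overlap between the groups. The ratio of Grin2d to Grin2a was 0.0991, 0.121 and 0.130 in WT and 0.185, 0.199 and 0.158 in dKO (log2 difference 0.63, exact permutation p = 0.1, 0.45 adjusted over the 9 ratios). The ratio of Gria3 to Gria2 was 0.494, 0.502 and 0.474 in WT and 0.451, 0.430 and 0.438 in dKO (log2 difference -0.16, exact permutation p = 0.1, 0.45 adjusted). Both stood at the smallest p the design allows, which misses 0.05. The ratio of Grin2a to Grin2b, which rises as NMDA receptors mature, was 0.817 ± 0.0483 in WT and 0.758 ± 0.0804 in dKO with overlapping values (exact permutation p = 0.4). Gria1 to Gria2 was 3.65 ± 0.354 in WT and 3.68 ± 0.0701 in dKO, and Camk2a to Camk2b was 3.82 ± 0.0878 in WT and 3.90 ± 0.0530 in dKO. The ratios of the GluN2 genes to Grin1, of Grik4 to Grik5 and of Dlg4 to Dlg3 also overlapped.

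A list of 87 other postsynaptic genes gave 4 rises and 1 fall among the 85 tested (5.88%, against 6.95% of all genes tested), with a median log2 fold change of -0.03. Of its 23 tested genes of other receptors and auxiliary subunits 3 rose (13.0%, against 5.9% of all genes tested). Cacng5, an auxiliary AMPA receptor subunit gene of the TARP family, was at 10.2, 10.6 and 11.0 CPM in the WT libraries and 16.1, 17.1 and 16.7 CPM in the dKO libraries. The values within each group were tight and the groups far apart, and it rose 1.56-fold (95% interval 1.36 to 1.79, adjusted p = 0.000403). It passed in all 15 alternative fits.

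Camk2n2, which encodes an inhibitor of calcium-calmodulin-dependent kinase II, had 44.2 ± 3.91 CPM in WT and 56.5 ± 2.89 CPM in dKO and rose 1.28-fold (95% interval 1.14 to 1.43, adjusted p = 0.00955). Of 15 alternatives 1 ended this call, the fit without dKO replicate 2 (adjusted p = 0.0606). Cnih3, a cornichon auxiliary subunit gene of AMPA receptors, rose by 18.2% (64.5 ± 0.823 CPM in WT and 76.3 ± 5.73 CPM in dKO, adjusted p = 0.0377), but 7 of 15 alternatives ended its call: GC correction and each omission of a library, with adjusted p values up to 0.212. The 20 other adhesion genes had 0 calls, with 0 higher and 3 lower at an unadjusted p under 0.05 (15.0% lower, against 7.66% of all genes tested, and 0% higher, against 12.6%).

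The promoter window of Cacng5 is shown because it had the smallest adjusted p of the list. It comes from the first RefSeq start (chr11:107915006-107915305, minus strand, GRCm38.p6), with CpG in capitals.
Cacng5: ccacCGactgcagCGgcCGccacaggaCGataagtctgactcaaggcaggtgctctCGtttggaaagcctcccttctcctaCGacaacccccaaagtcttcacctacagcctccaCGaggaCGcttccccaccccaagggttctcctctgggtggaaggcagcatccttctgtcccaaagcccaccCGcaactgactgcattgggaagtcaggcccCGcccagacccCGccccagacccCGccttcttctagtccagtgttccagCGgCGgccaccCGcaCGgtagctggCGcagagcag
It held 17 CpG and 2 GC boxes, and the window of its second start held 5 CpG and 0 GC boxes.

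**Figure D5:**
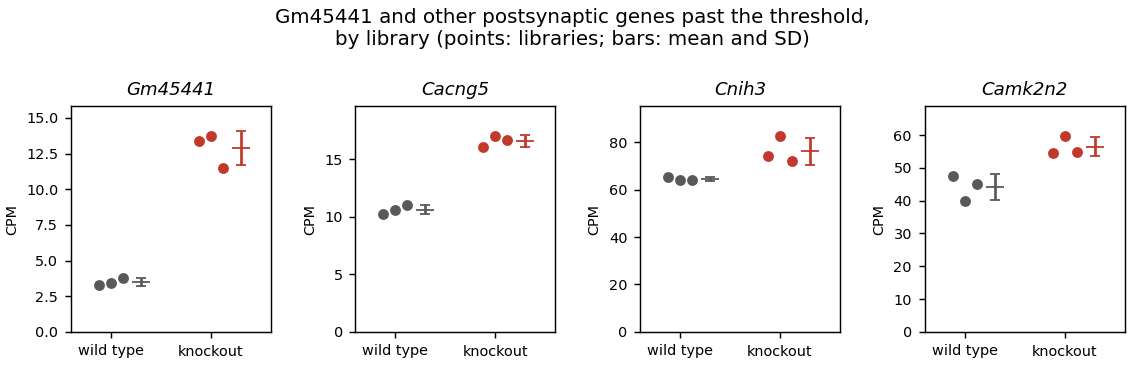
CPM (y axis, from 0) in each wild-type and double-knockout library for Gm45441, the antisense neighbour of Grin2d, and for Cacng5, Cnih3 and Camk2n2 of the list of other postsynaptic genes, with the mean and SD of each group. In all 4 genes the groups are separate, as for Gm45441 (3.31 to 3.80 CPM in wild type, 11.5 to 13.8 CPM in the knockout).

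Marker lists of the cells in these libraries were read beside the scaffold and Grin2d values. The summed level of principal neuron markers overlapped between the groups (2212 to 2394 CPM in WT and 2134 to 2288 CPM in dKO, 0 rises and 1 fall of 8, Neurod6), as did that of interneuron markers (937 to 995 CPM in WT and 884 to 960.2 CPM in dKO, 0 rises and 0 falls of 9) and of oligodendrocyte precursor markers (260.2 to 295 CPM in WT and 280.3 to 305 CPM in dKO, 0 rises and 0 falls of 5). Oligodendrocyte markers were higher in all dKO libraries (4941 to 5359.7 CPM in WT and 5501 to 6190.3 CPM in dKO, 1 rise and 0 falls of 6, Mbp), like the astrocyte markers above. So were microglial markers (282 to 312 CPM in WT and 318 to 363 CPM in dKO, 0 rises and 0 falls of 6) and vascular markers (297 to 306 CPM in WT and 307 to 346 CPM in dKO, 1 rise and 0 falls of 6, Pdgfrb). The vascular sums nearly met, and only Pdgfrb separated the groups, while Cldn5, Pecam1, Flt1, Rgs5 and Acta2 overlapped. The summed level of 3 more lists was higher, also carried by some of their genes. For choroid plexus and ependyma (36.9 to 53.8 CPM in WT and 69.0 to 129.9 CPM in dKO, 1 rise and 0 falls of 5) Kl separated the groups, while Ttr, Folr1, Clic6 and Foxj1 overlapped. For immature neurons (51.5 to 62.1 CPM in WT and 62.3 to 67.5 CPM in dKO, 1 rise and 0 falls of 4) Sox11, which rose, and Igfbpl1 were higher in all dKO libraries, while Dcx and Neurod1 overlapped. For thalamus and striatum (102 to 105 CPM in WT and 116 to 124 CPM in dKO, 2 rises and 0 falls of 7) Prkcd and Ppp1r1b rose and Adora2a was higher in all dKO libraries. Slc17a6, Drd1 and Drd2 overlapped there, with log2 fold changes of -0.49, -0.16 and 0.29, and Tcf7l2 was lower in all dKO libraries (-0.12, adjusted p = 0.664). In each list 0 markers were at 0. The sums weight abundant genes, and that of principal neurons includes Slc17a7 at 1336 CPM in WT. The median log2 fold change was -0.09 over principal neuron markers and -0.07 over interneuron markers, beside -0.07 over the scaffold genes. It was above 0 in the other lists, from 0.11 for vascular cells to 0.66 for choroid plexus and ependyma. The part of neuronal or glial RNA in the scaffold estimates, and of immature neurons or interneurons in the Grin2d rise, was not tested.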

How the data were processed

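The deposited values are raw gene counts, 1 column per library, made by the authors from 6 hippocampal libraries. The submitters' processing notes name cutadapt 1.18, HISAT2, HTSeq 0.11.1 and GRCm38 (mm10). Which annotation release and strand setting were used is not given in these sources. Symbols, coordinates and exons came from GENCODE M21. Low counts were removed with filterByExpr (count 10, total 15), leaving 16861 genes, and TMM factors were applied. The comparison of dKO with WT used the quasi-likelihood test of edgeR, with no covariate, and p-values adjusted by the Benjamini-Hochberg method over the 16861 genes (threshold 0.05). Adjusted p-values are from this test unless another tool is named. CPM use TMM library sizes. The SE is the log2 fold change divided by the root of the F statistic, and gives the 95% intervals. Levels per kilobase use the union of exons. Totals of over 19309576 counts per library set the counting precision.

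The 52 genes, their classes and the other lists were chosen with earlier results of these data known. Genes described in full were those past the threshold, in each class those with an unadjusted p under 0.05 or otherwise the 2 with the smallest p, the most abundant per kilobase, and up to 6 called genes of the other list; the rest are named by membership. No label states that libraries are from different animals, and the p-values then describe the spread between these samples, which may be technical. Scripts were tested on simulated data. A few genes and a ratio, withheld for evaluations, are not reported here but stay in the counts.

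Alternatives were DESeq2, limma-voom, RLE scaling, plain library sizes, a replicate block, other filters (none, or at least 1 CPM in 3 libraries), a loess GC correction (span 0.3) with and without that block, omission of each library, the longest transcript as gene length for ratios, and a threshold of 0.1. Software: R 4.3.3, edgeR 4.0.16, limma 3.58.1, DESeq2 1.42.0.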

Additional observations from a re-analysis of the deposited data

How the results depend on the processing

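Rises among the 52 genes numbered 2 with DESeq2, 3 with library size alone, 2 with no filter, 3 at a threshold of 0.1 and 1 to 4 on leaving out a library, the most without WT replicate 3. Falls numbered 2 with GC correction, 3 with GC correction and the block, 1 with no filter and 0 to 1 on leaving out a library (1 without WT replicate 1, Shank1, and 1 without WT replicate 3, Gria3). Of the 52 genes, 44 were called in 0 of 15 alternatives. In the list of other postsynaptic genes rises numbered 2 to 4 on leaving out a library and 4 to 6 under the other alternatives (6 with no filter, with GC correction and the block, and at 0.1). Falls there numbered 3 with DESeq2, 4 with GC correction, 4 with GC correction and the block, 3 with no filter, 5 at 0.1 and 0 to 5 on leaving out a library (0 without any 1 of the dKO libraries). Over all genes falls numbered 267 with GC correction, 279 with no filter, 395 at 0.1 and 48 to 323 on leaving out a library, and rises 676 to 1101. The cause was not tested.

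Class medians that moved on leaving out a library ranged -0.00803 to 0.11 for NMDA, -0.0286 to 0.0756 for kainate and -0.0465 to 0.0132 for auxiliary and sorting genes. Some log2 fold changes near 0 changed sign. Gria1 was at 0.00162 with at least 1 CPM in 3 libraries, 0.0160 with library size alone and -0.0415 to 0.0206 on leaving out a library. With GC correction, without and with the block, Grik5 was at -0.0623 and -0.0614 and Baiap2 at -0.0244 and -0.0247. On leaving out a library the ranges were -0.0412 to 0.17 for Grik1, -0.0193 to 0.0434 for Grik5, -0.00798 to 0.0748 for Baiap2, -0.0710 to 0.0128 for Nlgn2, -0.18 to 0.000632 for Shisa6, -0.0846 to 0.00445 for Olfm1 and -0.0232 to 0.10 for the log2 difference of Gria1 to Gria2.

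The labels do not say whether replicate numbers pair libraries. Deviations of same-numbered libraries correlated at 0.00931, -0.0342 and -0.0262, and such values cannot show that the libraries were unpaired. With the replicate block Grin2d kept its call (log2 fold change 0.54, adjusted p = 0.00700), with 1 rise and 0 falls among the 52 genes. Grm8, the gene with the lowest level, had the widest interval and 110 to 213 counts per library.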

Other observations

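Across the 52 genes the log2 fold change had a Spearman rho of 0.22 with the GC content of the longest transcript and of -0.20 with exon length. Over 16814 tested genes with these values rho was 0.22 and -0.10. These are descriptions over genes that share the same 6 libraries.

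Grin3b, a GluN3 subunit gene, and Grm6, a receptor gene of retinal bipolar cells, were in the list of other postsynaptic genes and had too few counts to test. Grin3b was at 0.343 ± 0.233 CPM in WT and 0.324 ± 0.0808 CPM in dKO, and Grm6 had 0, 0 and 0 counts in WT and 1, 1 and 0 in dKO. Arc, an activity-induced gene whose product acts on AMPA receptor trafficking, was named after its value was seen. It was at 166, 270.1 and 294 CPM in the WT libraries and 203, 189.8 and 122 CPM in the dKO libraries, with overlapping groups and a log2 fold change of -0.50 (SE 0.190, adjusted p = 0.147). It passed with no filter on low counts (adjusted p = 0.00473) and without WT replicate 1 (0.0183).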
